A study of Homo sapiens with 12 samples.

Results

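The loci described here are those of 10 genes of the NOTCH pathway, out of 20033 protein-coding genes considered. They are the receptor genes NOTCH1, NOTCH2, NOTCH3 and NOTCH4, the ligand genes JAG1, JAG2, DLL1 and DLL4, and the target genes HES1 and HEY1. Each locus was taken as the gene body with 20 kb on each side (hg38, GENCODE v44 gene models) and is called a window. The windows held 581 of the 709366 accessible bins of 100 bp measured in DU-145 cells and 452 of the 472994 bins measured in BT-549 cells. Runs of adjoining bins are called regions, of which 46 of 79177 in DU-145 cells and 31 of 46298 in BT-549 cells lay in the windows. The NOTCH3 window held 0 bins in BT-549 cells, so NOTCH3 was measured in DU-145 cells only.

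Chromatin accessibility was measured by ATAC-seq, in which a transposase inserts sequencing adapters into open chromatin. Of the lines used, DU-145 came from castration-resistant prostate cancer (CRPC), and BT-549 came from triple-negative breast cancer (TNBC). Cells of both lines carried tet-MUC1shRNA, a hairpin against MUC1 that is switched on by doxycycline (DOX), and each line gave 3 vehicle libraries (0.1% DMSO) and 3 DOX libraries after treatment for 7 days. The comparison asks how silencing of MUC1-C, the transmembrane subunit of MUC1, changes accessibility at these loci. In the labels the vehicle libraries appear both as untreated and as given DMSO. All groups carried the MUC1 hairpin and none a control hairpin, so MUC1 silencing and exposure to DOX cannot be told apart, and the level of MUC1 itself was not analysed here. The replicates of a group are described in the study's methods as biologically independent.

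NOTCH receptors are transmembrane proteins that are cleaved when a JAG or DLL ligand on a neighbouring cell engages them. The released intracellular domain moves to the nucleus and binds the DNA-binding protein RBPJ, and with coactivators of the Mastermind-like family it switches on target genes such as HES1 and HEY1, which encode transcriptional repressors. The pathway is known for its part in cell fate and stem cell programmes in prostate and mammary epithelium. AP-1, a dimer of JUN and FOS family proteins, binds a different short sequence and is a general regulator of accessible distal elements.

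The sequences below are 30-base stretches of the hg38 plus strand, read 5′ to 3′, from some of the regions described in the text. No test is given for the HES1 region 3.3 kb downstream and the DLL1 region 1.7 kb downstream. Not every match of a region is printed. The NOTCH2 region 82.4 kb downstream and the HES1 region 5.5 kb downstream also hold RBPJ matches. They are shown because the study is concerned with JUN/AP-1 and because RBPJ is the DNA-binding partner of NOTCH. Capitals mark an AP-1 match (TGACTCA or its reverse complement TGAGTCA) or an RBPJ match (GTGGGAA or its reverse complement TTCCCAC), both strands having been searched. A match is a description of the letters and not evidence of binding.
HES1 start region, RBPJ match, chr3:194136052-194136081: tgaaagttactGTGGGAAagaaagtttggg
HES1 start region, AP-1 match, chr3:194135325-194135354: gcgcgagtcccTGAGTCAttgccctcggag
HES1 region 3.3 kb downstream, RBPJ match, chr3:194139840-194139869: tgctctggcctTTCCCACaggccagtgtgg
HES1 region 5.5 kb downstream, AP-1 match, chr3:194142091-194142120: aaacaccctcgTGACTCAtcccaggtttga
NOTCH2 region 82.4 kb downstream, AP-1 match, chr1:119987268-119987297: gacagtgaaagTGACTCAttgtgccaatgg
NOTCH1 region 6.1 kb downstream, AP-1 match, chr9:136539790-136539819: gacgaggcaggTGACTCAatggaaagagcc
JAG2 region 7.5 kb upstream, AP-1 match, chr14:105176201-105176230: gaacagagctgTGAGTCAcccccaccccca
DLL1 region 1.7 kb downstream, RBPJ match, chr6:170289191-170289220: aaaccagaaccTTCCCACgtgaaggggcgc

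The AP-1 letters were found in 17 of the 581 NOTCH bins of DU-145 cells (2.93%), against 4.93% of all bins of that table. In BT-549 cells they were found in 5 of 452 NOTCH bins (1.11%), against 3.10% of all bins. The RBPJ letters were found in 17 of 581 NOTCH bins of DU-145 cells (2.93%, against 2.10% of all bins) and in 12 of 452 NOTCH bins of BT-549 cells (2.65%, against 2.13% of all bins). HES1 held 5 of the RBPJ-matching bins in DU-145 cells and 4 in BT-549 cells. Among RefSeq promoters of hg38, 8 of the 10 genes had an entry, of which HES1 held the RBPJ letters and NOTCH4 the AP-1 letters, as did 6.25% and 4.95% of 35116 promoters, respectively.

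The summed coverage of the DU-145 libraries ranged from 12370094 to 24001285 in the vehicle group and from 16337380 to 25232000 in the DOX group. The BT-549 vehicle libraries ranged from 9142900 to 13606129 and their DOX libraries from 2502510 to 3267024, so that in this line depth and treatment cannot be told apart. Values were scaled by the sum of each library. With this scaling the median log2 fold change over all regions was 0.24 in DU-145 cells and -0.10 in BT-549 cells, and 0.05 and 0.002 with TMM factors, a scaling that centres the bulk of the regions. The share of changed regions that was higher with DOX moved accordingly, from 68.0% to 54.1% in DU-145 cells and from 40.4% to 51.7% in BT-549 cells. A region lay at the gene start for 5 of 5 epithelial markers in DU-145 cells and for 0 of 5 in BT-549 cells, and for 3 of 4 and 4 of 4 mesenchymal markers, respectively. KLK3 and HOXB13, which are prostate luminal markers, had none in DU-145 cells, and TMPRSS2 had one. Regions of this kind were found for 5 of 5 breast luminal markers in DU-145 cells and for 3 of 5 in BT-549 cells, with ESR1 and PGR lacking one in the latter.

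HES1 was higher after DOX in BT-549 cells and lower in DU-145 cells, NOTCH1 was higher in both lines, and NOTCH2 was higher in DU-145 cells and lower in BT-549 cells. In DU-145 cells, 3 of the 10 windows rose (NOTCH1, NOTCH2 and NOTCH3), 3 fell (NOTCH4, HES1 and HEY1) and 4 did not pass the test. Among all 18206 windows tested in this line, 20.7% rose and 31.3% fell. The median log2 fold change was 0.03 over the NOTCH windows and -0.06 over all windows. In BT-549 cells, 3 of 9 windows rose (NOTCH1, JAG2 and HES1), 2 fell (NOTCH2 and DLL4) and 4 did not pass the test. The NOTCH2 bins of that line all came from regions with peaks in vehicle libraries alone, so that the direction of this window was largely set by how bins entered the table. In the DLL4 window 24 of 54 bins came from a region with peaks in 3 vehicle libraries and 1 DOX library, which favoured a fall. Among all 16972 windows tested, 19.0% rose and 13.8% fell, and the median was 0.14 over the NOTCH windows and 0.04 over all windows. These tests used the quasi-likelihood test of edgeR with Benjamini-Hochberg adjustment over all windows of a line, and a window was called at an adjusted p under 0.05. With another scaling, the share of the called windows of the whole genome that rose went from 39.8% to 50.2% in DU-145 cells (RLE factors) and from 57.9% to 49.4% in BT-549 cells (TMM factors).

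**Figure D1:**
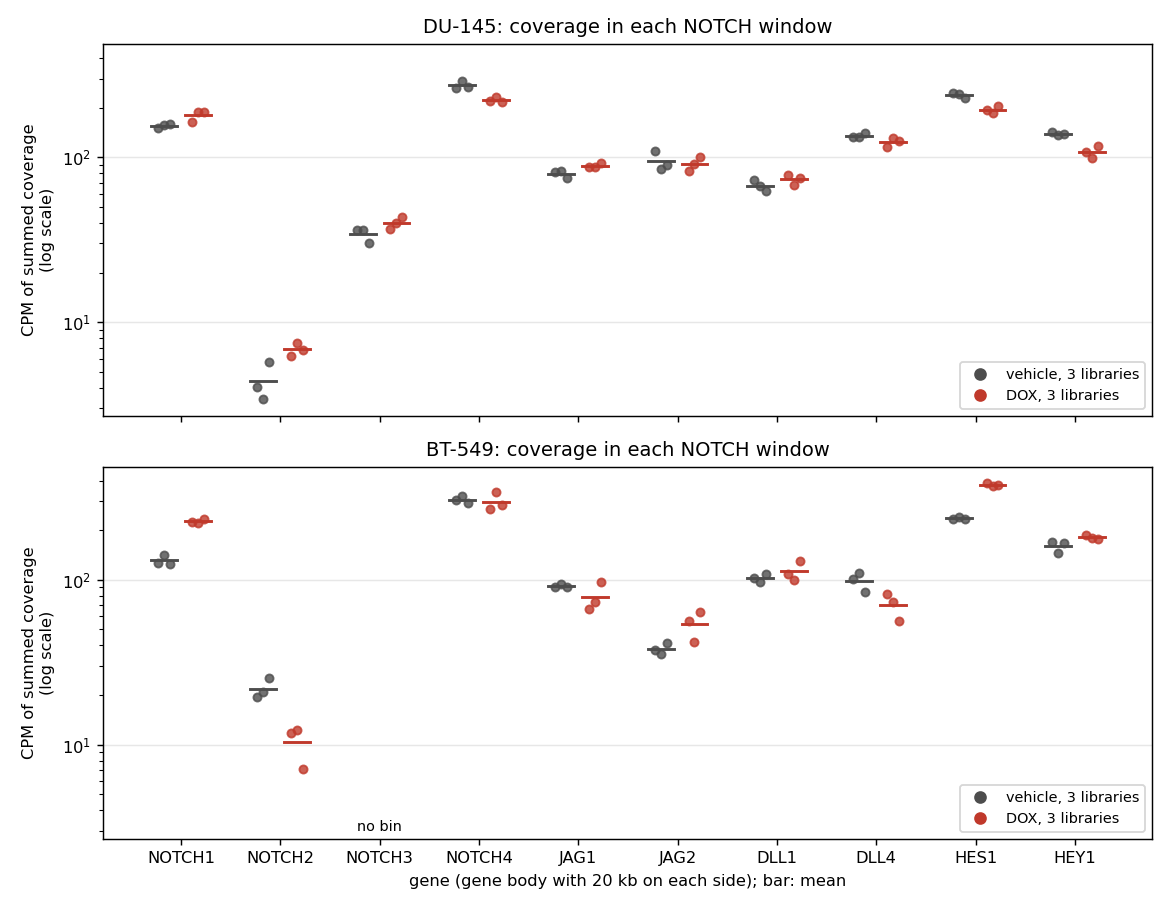
Summed coverage of each NOTCH window as coverage per 1000000 of the library's sum (CPM, vertical axis, log scale), with 1 point per library (vehicle grey, DOX red), a bar at the mean of 3 libraries and the lines in separate panels. The HES1 points of BT-549 cells lie at 234 to 242 CPM with vehicle and 373 to 385 CPM with DOX, and NOTCH2 is the lowest window in both lines.

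**Figure D2:**
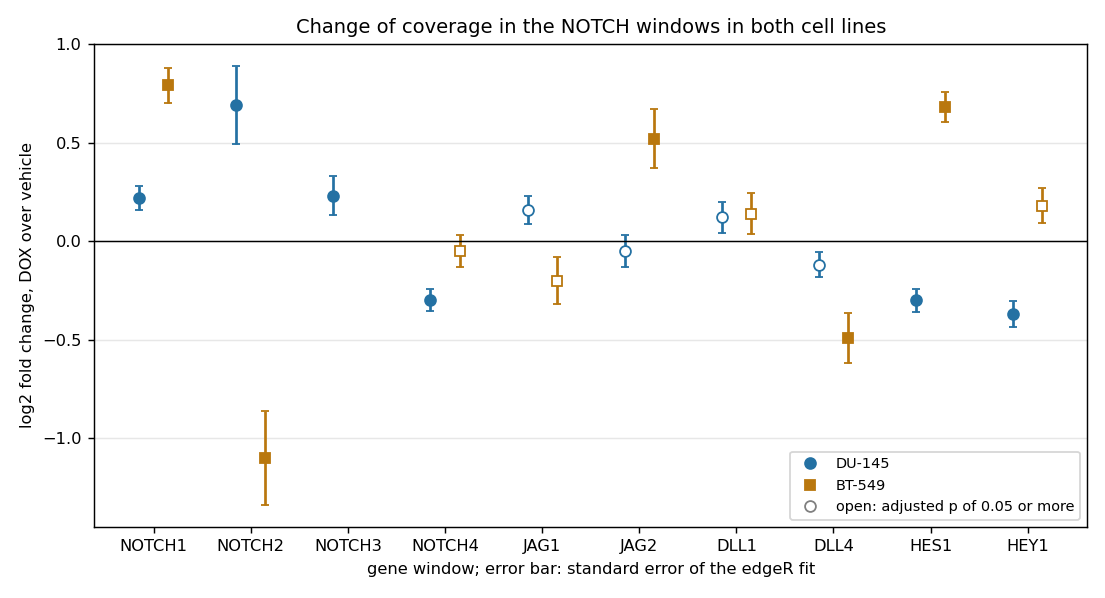
Log2 fold change of each NOTCH window, DOX over vehicle, with the standard error of the edgeR fit as error bar (circles DU-145, squares BT-549, open symbols not called). HES1 sits at -0.30 in DU-145 cells and 0.68 in BT-549 cells, and NOTCH2 at 0.69 and -1.10.

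Per kb of window, coverage in the DU-145 vehicle group was 5.62 CPM for HES1, 3.95 for NOTCH4, 3.07 for HEY1, 2.71 for DLL4, 1.70 for NOTCH1 and 1.40 for JAG2. DLL1 and JAG1 followed at 1.05 and 1.04 CPM per kb, NOTCH3 at 0.416 and NOTCH2 at 0.0191. The 3 libraries of neighbours in this order did not overlap, except between DLL1 and JAG1. In the BT-549 vehicle group HES1 again led at 5.56 CPM per kb, and NOTCH2 was again last at 0.0955 CPM per kb. These are levels of accessibility, not of RNA.

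NOTCH1 encodes the receptor best studied in both tissues, and its window rose in both lines. In DU-145 cells the vehicle libraries gave 151, 157 and 159 CPM and the DOX libraries 163.5, 189 and 189.6 CPM. Each DOX library lay above each vehicle library, and the change was 0.22 on the log2 scale (SE 0.062, adjusted p = 0.00371). The BT-549 vehicle libraries gave 127, 141 and 125 CPM and the DOX libraries 223, 222.8 and 233 CPM. The groups stood well apart, at 131 ± 8.82 and 226 ± 5.89 CPM (SD, n = 3), a difference of 0.79 on the log2 scale (SE 0.087, adjusted p = 8.89e-09). With flanks of 5 kb in place of 20 kb, the DU-145 window did not pass the test (log2 fold change 0.14, adjusted p = 0.192).

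Much of the NOTCH1 window lay at the start of a neighbouring gene. A region at the start of SEC16A, 62.2 kb downstream of the NOTCH1 start (chr9:136482201-136485500), gave 27.0, 29.0 and 24.7 per bin with vehicle and 49.6, 53.3 and 50.4 with DOX in BT-549 cells, where values per bin are the mean coverage of a 100-bp bin scaled to a library sum of 10000000. The groups did not overlap (log2 fold change 0.92, adjusted p = 3.37e-08). The same region was at 0.18 in DU-145 cells (adjusted p = 0.0501), and at 0.28 without DOX replicate 1 (adjusted p = 0.00285). Its direction in that line depended on the scaling. It was at -0.01 with TMM factors (adjusted p = 0.947), -0.06 with DESeq2 (adjusted p = 0.636) and 0.26 with the trend on GC content removed (adjusted p = 0.00406). The region at the NOTCH1 start itself (chr9:136545201-136547000) gave 21.1, 25.3 and 24.3 with vehicle and 32.9, 26.1 and 37.1 with DOX in BT-549 cells. It rose on the log2 scale by 0.45 (adjusted p = 0.0162), but DOX replicate 2 lay close to the highest vehicle library. This call was lost without vehicle replicate 1 (0.38, adjusted p = 0.116), without DOX replicate 3 (0.33, adjusted p = 0.13) and with the trend on GC content removed (0.24, adjusted p = 0.235). In DU-145 cells the NOTCH1 start region was at 0.09 (adjusted p = 0.4), and at -0.10 with TMM factors (adjusted p = 0.367).

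Of 4 distal NOTCH1 regions found only in DU-145 cells, 2 rose. Those 57.3 kb downstream (0.39, adjusted p = 0.148) and 5.3 kb upstream (0.46, adjusted p = 0.16) did not pass the test. The region 12.2 kb upstream (chr9:136557701-136558800) gave 6.66, 9.96 and 9.32 with vehicle and 15.8, 14.0 and 13.2 with DOX. All DOX libraries lay above all vehicle libraries, with a log2 fold change of 0.71 (adjusted p = 0.000143), which was 0.28 (adjusted p = 0.112) with the GC trend removed. The intronic region 6.1 kb downstream, whose AP-1 match is printed above, rose from 6.59 ± 0.63 to 10.3 ± 1.08 (SD, n = 3), a log2 fold change of 0.64 (adjusted p = 0.0104). That call was lost with TMM factors (0.45, adjusted p = 0.0688) and without DOX replicate 2 (0.54, adjusted p = 0.0612).

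**Figure D3:**
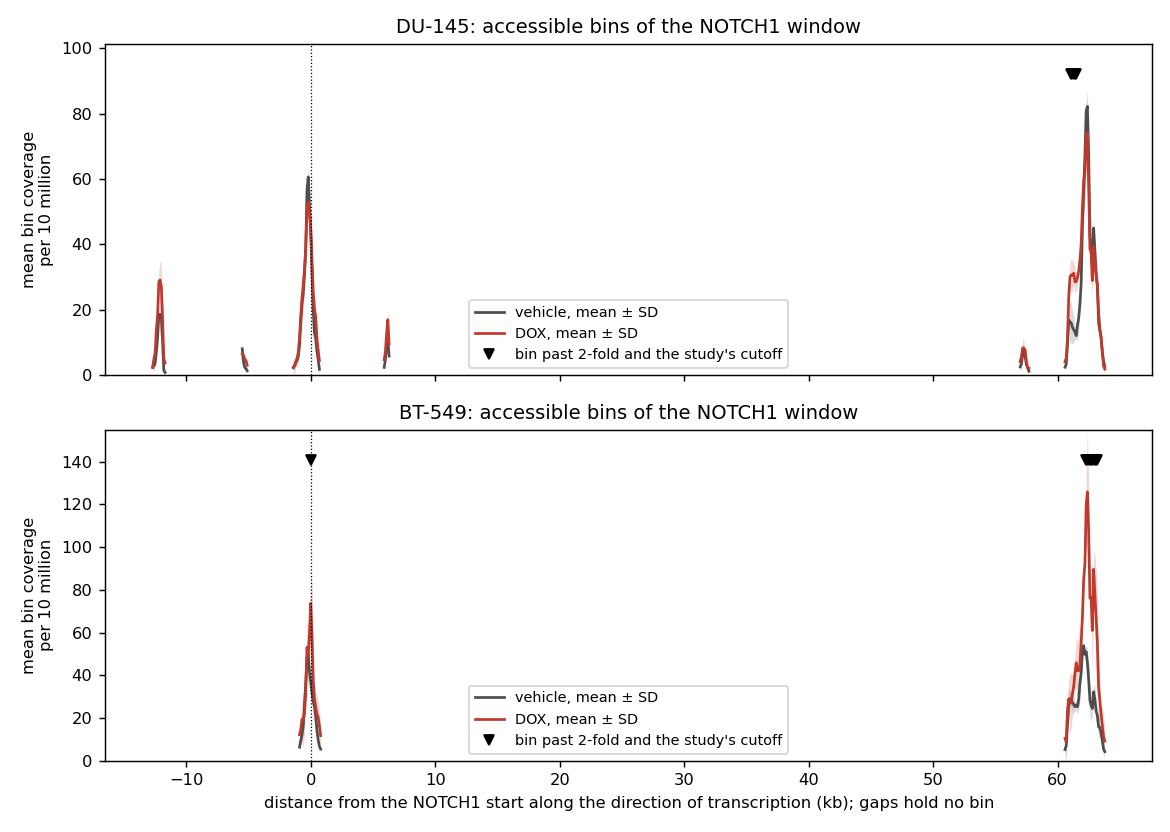
Mean bin coverage per library sum of 10000000 (vertical axis) against the distance from the NOTCH1 start in kb (horizontal axis), as lines with SD shading over 3 libraries (vehicle grey, DOX red), with triangles over bins past 2-fold and the study's cutoff. In BT-549 cells 11 bins carry a triangle, and 10 of them lie in the SEC16A start region.

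NOTCH2 encodes a receptor related to NOTCH1 and had the least accessible window. In DU-145 cells the vehicle libraries gave 4.01, 3.40 and 5.73 CPM and the DOX libraries 6.26, 7.48 and 6.80 CPM. The DOX libraries were the higher ones, a difference of 0.69 on the log2 scale (SE 0.199, adjusted p = 0.00428). The order was the opposite in BT-549 cells, with 19.6, 20.8 and 25.2 CPM in the vehicle group and 11.8, 12.3 and 7.13 CPM in the DOX group. The fitted difference there was -1.10 on the log2 scale. Since all 21 bins of this window lay in regions with peaks in vehicle libraries alone, it is given as a description. The DU-145 call was lost without vehicle replicate 2 (0.50, adjusted p = 0.0666) and with loess offsets, which remove a trend with abundance (0.42, adjusted p = 0.0758). Near-identical NOTCH2NL copies elsewhere on chromosome 1 can share reads with NOTCH2, so its values are uncertain.

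Most of the NOTCH2 change came from a region at the start of an alternative transcript, 82.4 kb downstream of the main start, which holds the AP-1 letters printed above. In DU-145 cells (chr1:119987001-119987600) it gave 3.25, 2.38 and 5.04 per bin with vehicle and 5.48, 8.65 and 6.62 with DOX. The groups were separate, although by little (log2 fold change 1.05, adjusted p = 0.0011). This region was longer in BT-549 cells (chr1:119986801-119988200) and gave 9.63, 9.15 and 12.1 with vehicle and 5.46, 4.83 and 2.30 with DOX. The fitted difference was -1.30 on the log2 scale, for a region that entered the table through peaks in 3 vehicle libraries and in 0 DOX libraries, which largely fixed its direction. With the GC trend removed the DU-145 call was lost, at 0.49 (adjusted p = 0.129), and the BT-549 value was -0.79. The region at the main NOTCH2 start was present in DU-145 cells only, at 2.26, 4.74 and 4.64 with vehicle and 3.06, 2.65 and 4.79 with DOX, and these groups overlapped (-0.17, adjusted p = 0.739).

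NOTCH3, a receptor known from vascular smooth muscle and several carcinomas, had bins in the table of DU-145 cells alone. Its window gave 36.0, 36.2 and 30.0 CPM with vehicle and 36.8, 39.8 and 43.6 CPM with DOX. The lowest DOX library exceeded the highest vehicle library by little, and the log2 fold change of 0.23 was just past the threshold (SE 0.098, adjusted p = 0.0484). The call was lost without vehicle replicate 3 (0.15, adjusted p = 0.238), DOX replicate 2 (0.24, adjusted p = 0.066) or DOX replicate 3 (0.16, adjusted p = 0.248), and the direction turned with flanks of 50 kb (-0.12). The region at the NOTCH3 start (chr19:15200201-15201500) gave 3.82, 3.75 and 4.14 with vehicle and 3.71, 6.48 and 7.11 with DOX. DOX replicate 1 lay below the vehicle libraries, and the log2 fold change of 0.58 (adjusted p = 0.0156) was 0.39 with TMM factors (adjusted p = 0.105). It did not pass the test without vehicle replicate 2, DOX replicate 2 or DOX replicate 3 (adjusted p = 0.0579, 0.0798 and 0.143). In BT-549 cells 0 to 2 peaks per library were called in the NOTCH3 window.

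NOTCH4 encodes a receptor known from endothelium, and neither line had a region at its main start. Its window gave 263, 289.8 and 269 CPM with vehicle and 219.9, 232 and 217 CPM with DOX in DU-145 cells. The groups did not overlap, and the window fell by 0.30 on the log2 scale (SE 0.056, adjusted p = 4.82e-05). The BT-549 libraries gave 307.5, 322 and 292 CPM with vehicle and 268, 339.6 and 284 CPM with DOX, and the groups overlapped (-0.05, adjusted p = 0.676). Most of the coverage lay at the starts of neighbouring genes. The region at the start of GPSM3, which is also near the start of a short NOTCH4 transcript (chr6:32194901-32196800), fell from 71.7 ± 2.22 to 56.1 ± 2.57 per bin (SD, n = 3) in DU-145 cells (-0.35, adjusted p = 5.6e-05). A region at the starts of AGPAT1 and RNF5 fell by 0.26 (adjusted p = 0.00421), which was lost without vehicle replicate 2 (-0.20, adjusted p = 0.0571). With loess offsets neither passed (-0.03 and 0.05).

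Among the ligand genes, single distal regions changed by more than the windows that contained them. JAG1 encodes a ligand of the Jagged type, and its window gave 81.1, 82.1 and 75.2 CPM with vehicle and 87.5, 87.7 and 92.2 CPM with DOX in DU-145 cells. The groups did not overlap, but the log2 fold change of 0.16 missed the threshold (SE 0.071, adjusted p = 0.0545). It passed with TMM factors (0.21, adjusted p = 0.0123) and without DOX replicate 1 (0.18, adjusted p = 0.0483). For BT-549 cells the JAG1 window gave 90.9, 94.0 and 90.4 CPM with vehicle and 66.6, 73.7 and 97.4 CPM with DOX. DOX replicate 3 lay above the vehicle libraries and the others below. The log2 fold change was -0.20 (adjusted p = 0.196), or -0.39 without that library. Of the 49 bins of this window, 8 lay in a region 38.9 kb downstream and 5 in a region 36.7 kb downstream. Both regions had peaks in 3 vehicle libraries and 0 DOX libraries, which favoured a fall, so the value of -0.39 is given as a description.

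The JAG1 start region (chr20:10671401-10675200) rose in DU-145 cells from 20.1 ± 1.02 to 22.9 ± 0.555 per bin (SD, n = 3), a log2 fold change of 0.19 (adjusted p = 0.0361). This direction depended on the scaling, since TMM factors gave -0.01 (adjusted p = 0.95), and the call was lost without vehicle replicate 3 (0.15, adjusted p = 0.161) or DOX replicate 3 (0.17, adjusted p = 0.134). The start region was at -0.10 in BT-549 cells (adjusted p = 0.57). A region 38.9 kb downstream (chr20:10634701-10635500) was measured in BT-549 cells only and gave 8.21, 8.25 and 7.62 with vehicle and 0.00, 0.874 and 5.31 with DOX. Each DOX library lay below the vehicle libraries by a very different amount. The fitted difference of -1.77 on the log2 scale ranged from -3.98 (without DOX replicate 3) to -1.23 (without DOX replicate 1) over the alternatives. Peaks had been called there in 3 vehicle libraries and 0 DOX libraries, which largely fixed the direction, so no test is given. The region lay under the coverage minimum for regions singled out and was chosen after its values were seen.

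JAG2, the other Jagged ligand gene, had a window at 109, 85.5 and 90.1 CPM with vehicle and 83.0, 90.6 and 100.2 CPM with DOX in DU-145 cells. These groups overlapped (-0.05, adjusted p = 0.621). Within it, the region 7.5 kb upstream (chr14:105175801-105176700), which has 2 AP-1 matches and is not among the regions of BT-549 cells, gave 2.67, 2.49 and 2.07 with vehicle and 6.83, 7.66 and 7.22 with DOX. All DOX libraries exceeded all vehicle libraries by more than 2-fold, at 1.58 on the log2 scale (SE 0.217, adjusted p = 1.51e-07), and 1.39 with TMM factors. The JAG2 start region beside it was at -0.07 (adjusted p = 0.522), and fell with TMM factors (-0.26, adjusted p = 0.0134).

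In BT-549 cells the JAG2 window gave 37.4, 35.5 and 41.4 CPM with vehicle and 56.6, 41.8 and 63.6 CPM with DOX. DOX replicate 2 lay just above the vehicle group, and the change was 0.52 on the log2 scale (SE 0.149, adjusted p = 0.00729). The call was lost without DOX replicate 3 (0.37, adjusted p = 0.101), with the libraries thinned to one depth (0.33, adjusted p = 0.13) and with the GC trend removed (0.29, adjusted p = 0.131), and the value was -0.07 with flanks of 5 kb. The coverage that rose was at the start of the neighbouring gene NUDT14, 12.5 kb upstream (chr14:105180601-105181900), with 9.84, 10.3 and 12.04 per bin in the vehicle group and 29.6, 16.6 and 26.4 in the DOX group. These groups did not overlap (1.18, adjusted p = 7.93e-05). The region at the JAG2 start was at -0.41 (adjusted p = 0.179).

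DLL1, a ligand gene of the Delta-like type, had windows that did not pass the test in either line. They gave 73.1, 66.5 and 62.1 CPM with vehicle and 77.9, 67.8 and 74.7 CPM with DOX in DU-145 cells, which overlapped (0.12, adjusted p = 0.192). In BT-549 cells they gave 103, 97.1 and 109 CPM with vehicle and 109, 99.6 and 131 CPM with DOX, which overlapped as well (0.14, adjusted p = 0.329). Inside the gene, a weakly accessible region 1.7 kb downstream of the start (chr6:170289101-170289700) went from 0.297, 0.588 and 0.388 per bin with vehicle to 5.07, 2.72 and 5.08 with DOX in DU-145 cells. Every DOX library was above every vehicle library, a fitted difference of 3.28 on the log2 scale. This region entered the table through peaks in 3 DOX libraries and 0 vehicle libraries, which largely fixed its direction, so no test is given. Like the JAG1 region above, it was under the coverage minimum and picked with its values known. The adjoining region at the DLL1 start rose as well (0.97, adjusted p = 0.00258), but not without DOX replicate 1 (0.64, adjusted p = 0.059). The region 10.6 kb downstream fell by 0.32 on the log2 scale, from 16.8 ± 1.005 to 13.5 ± 2.23 per bin (SD, n = 3, edgeR adjusted p = 0.0407), and lost the call without DOX replicate 2 (-0.20, adjusted p = 0.249), without DOX replicate 3 or any 1 vehicle library (adjusted p from 0.0508 to 0.118), and with the GC trend removed (-0.25, adjusted p = 0.111). The most accessible region of the DLL1 window, at the start of FAM120B, was at 0.11 in DU-145 cells (adjusted p = 0.354) and at -0.05 in BT-549 cells (adjusted p = 0.813).

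DLL4, a Delta-like ligand gene known from sprouting vessels, gave 133, 132 and 139.7 CPM with vehicle and 115.5, 130.2 and 126 CPM with DOX in DU-145 cells. The DOX libraries were the lower ones, but the change of -0.12 did not pass the test (adjusted p = 0.117), except without DOX replicate 2 (-0.16, adjusted p = 0.0456). The DLL4 window of BT-549 cells gave 101, 109.6 and 84.3 CPM with vehicle and 82.1, 73.5 and 56.2 CPM with DOX. The groups were close but separate, and the window fell by 0.49 on the log2 scale (SE 0.126, adjusted p = 0.00283). The call was lost without DOX replicate 3 (-0.34, adjusted p = 0.0625), and the value was 0.10 with flanks of 5 kb. Of the 54 bins of this window, 24 lay in the region described next, which entered the table mainly through vehicle peaks. A fall of the window was favoured by this, so its test is of limited weight. The other regions of the window in that line were at 0.23, 0.01 and -0.10 and did not pass the test.

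The DLL4 region called lower in BT-549 cells was a cluster of bins 29.7 kb downstream of the start (chr15:40956601-40961400), of which 24 of 48 bins lay inside the window. It gave 12.8, 15.2 and 10.3 per bin with vehicle and 5.21, 3.36 and 5.50 with DOX. The fitted difference over all 48 bins was -1.43 on the log2 scale, with no overlap. Peaks had been called there in 3 vehicle libraries and 1 DOX library, so the region entered the table through the group where it was higher. It is therefore given as a description. The DLL4 start region was at 0.23 (adjusted p = 0.582). In DU-145 cells the region 8.9 kb downstream (chr15:40937901-40938600) gave 10.2, 8.14 and 9.70 with vehicle and 5.78, 4.74 and 6.02 with DOX. It fell by 0.76 (SE 0.2, adjusted p = 0.00163) with no overlap, whereas the start region was at -0.13 (adjusted p = 0.197) and fell with TMM factors (-0.32, adjusted p = 0.00212).

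HES1 encodes a basic helix-loop-helix repressor and is the classical NOTCH target. In DU-145 cells its window gave 247, 242.5 and 229 CPM with vehicle and 192.5, 187 and 204.5 CPM with DOX. No DOX library reached the lowest vehicle library, and the window fell by 0.30 on the log2 scale (SE 0.057, adjusted p = 4.83e-05). The vehicle libraries of BT-549 cells gave 234, 242 and 235 CPM and the DOX libraries 385, 373 and 379 CPM. The means were 237 ± 4.34 and 379 ± 5.82 CPM (SD, n = 3), and the window rose on the log2 scale by 0.68 (SE 0.075, adjusted p = 8.9e-09). Both calls held in 19 of 19 alternative settings, in which the log2 fold change ranged from -0.34 to -0.19 in DU-145 cells and from 0.50 to 0.70 in BT-549 cells.

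At the HES1 start, the region holding both the RBPJ and the AP-1 letters printed above (chr3:194133701-194138300) gave 34.0, 32.8 and 31.0 per bin with vehicle and 24.4, 24.8 and 25.9 with DOX in DU-145 cells. The groups did not overlap (-0.38, adjusted p = 1.68e-05), and the change was -0.57 with TMM factors and -0.04 with loess offsets (adjusted p = 0.652). In BT-549 cells the start region gave 28.5, 28.1 and 30.3 with vehicle and 46.2, 41.3 and 45.4 with DOX. It rose there on the log2 scale by 0.62 (SE 0.089, adjusted p = 5.4e-06).

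Upstream of HES1, the region at 14.0 kb gave 5.26, 5.23 and 5.04 with vehicle and 8.20, 8.47 and 7.29 with DOX in DU-145 cells. It rose by 0.62 on the log2 scale (adjusted p = 0.0139), against the direction of the window. That call was lost with TMM factors (0.43, adjusted p = 0.0854), with loess offsets (0.22, adjusted p = 0.403), without DOX replicate 2 (0.57, adjusted p = 0.0519) and with the GC trend removed (-0.10, adjusted p = 0.732).

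Downstream of HES1 the lines also differed. The region 3.3 kb downstream (chr3:194139001-194139900) gave 4.73, 7.66 and 5.39 with vehicle and 1.02, 1.88 and 1.56 with DOX in DU-145 cells. The fitted difference was -1.97 on the log2 scale, with no overlap. Peaks had been called there in 3 vehicle libraries and 1 DOX library, so the region entered the table through the group where it was higher. No test is given for that reason. The corresponding region of BT-549 cells was at -0.04 (adjusted p = 0.933). The region 5.5 kb downstream, with the second AP-1 match, gave 37.6, 39.1 and 33.2 with vehicle and 68.8, 70.4 and 66.2 with DOX in BT-549 cells (chr3:194140501-194142700). It rose on the log2 scale by 0.90 (SE 0.1, adjusted p = 9.49e-08), again with no overlap. In DU-145 cells this region gave 41.6, 40.8 and 39.4 with vehicle and 37.2, 33.0 and 39.8 with DOX, and DOX replicate 3 lay within the vehicle group (-0.15, adjusted p = 0.121). It fell with TMM factors (-0.34, adjusted p = 0.000597).

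**Figure D4:**
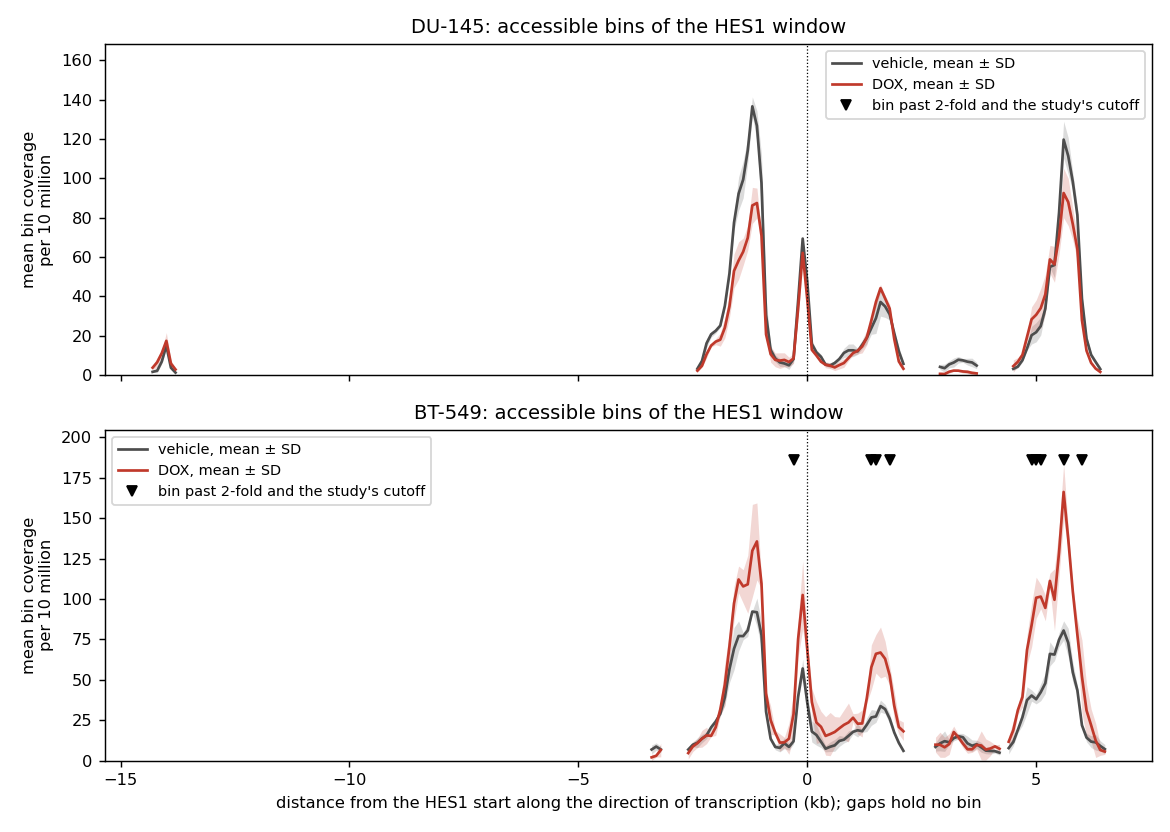
Mean bin coverage per library sum of 10000000 (vertical axis) against the distance from the HES1 start in kb (horizontal axis), as lines with SD shading over 3 libraries (vehicle grey, DOX red), with triangles over bins past 2-fold and the study's cutoff. The DOX line runs above the vehicle line at the start and at 5.5 kb in BT-549 cells, where 9 bins carry a triangle, and in DU-145 cells 0 bins do.

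HEY1, a related repressor gene and NOTCH target, fell in DU-145 cells. Its window gave 142, 137 and 139 CPM with vehicle and 108, 98.6 and 117 CPM with DOX, with no overlap (-0.37, SE 0.067, adjusted p = 2.23e-05). The start region went from 41.9 ± 0.641 to 33.0 ± 4.39 per bin (SD, n = 3), a fall by 0.34 (adjusted p = 0.00109) that was not called with loess offsets (-0.15, adjusted p = 0.15). The region 16.1 kb upstream (chr8:79783301-79784500) gave 47.7, 44.4 and 47.0 with vehicle and 33.5, 30.2 and 33.1 with DOX. It fell by 0.52 on the log2 scale (SE 0.088, adjusted p = 5.14e-06). In contrast, the region 17.6 kb upstream gave 5.64, 3.22 and 3.93 with vehicle and 7.42, 5.87 and 6.46 with DOX, and rose by 0.65 (adjusted p = 0.0345). This call held in 7 of 18 alternative settings, among which TMM factors gave 0.46 (adjusted p = 0.135) and leaving out vehicle replicate 2 gave 0.45 (adjusted p = 0.205). It was also lost without vehicle replicate 3, DOX replicate 1 or DOX replicate 3 (adjusted p = 0.0695, 0.11 and 0.068). The HEY1 window of BT-549 cells gave 169, 146 and 166 CPM with vehicle and 187, 180.5 and 178 CPM with DOX. The DOX libraries were the higher ones, but the change of 0.18 did not pass the test (adjusted p = 0.116), nor did the start region (0.13, adjusted p = 0.37).

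Over all 46 regions of the NOTCH windows in DU-145 cells, 11 rose, 8 fell and 27 did not pass the test. This was 41.3% called, against 54.5% of all regions of that line, of which 37.1% rose and 17.4% fell. The median log2 fold change was 0.10 over the NOTCH regions and 0.24 over all regions. With TMM factors 5 rose and 14 fell. In 25 of the 46 regions the libraries of the groups did not overlap, 15 with DOX above and 10 with DOX below, against 40.1% and 19.4% of all regions. In BT-549 cells 5 of 31 regions rose, 3 fell and 23 did not pass the test. Regions with peaks in 1 group alone made up 2 of these 3 (NOTCH2 and JAG1) and 1 of the 11 that rose in DU-145 cells (DLL1). The DLL4 region that fell in BT-549 cells had peaks in 3 vehicle libraries and 1 DOX library, as did the HES1 region 3.3 kb downstream in DU-145 cells. In BT-549 cells 25.8% of the NOTCH regions were called, against 30.2% of all regions, of which 12.2% rose and 18.0% fell. The medians were 0.13 and -0.10. The groups did not overlap in 8 regions with DOX above and in 6 with DOX below, against 16.2% and 27.0% of all regions.

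**Figure D5:**
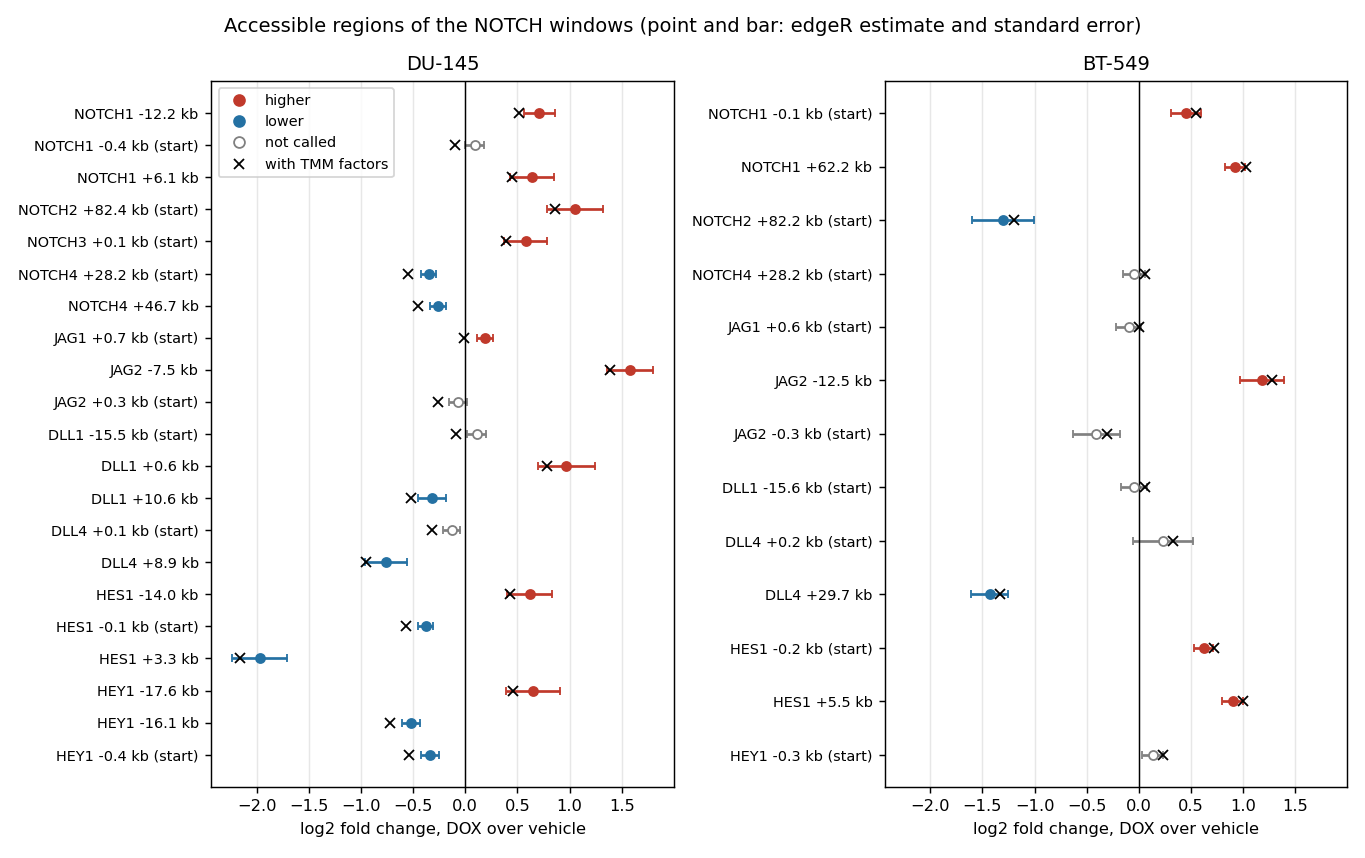
Log2 fold change, DOX over vehicle, of the regions singled out in each NOTCH window (red higher, blue lower, open grey not called), with the standard error of the edgeR fit as error bar and crosses for TMM factors. In DU-145 cells the JAG2 region 7.5 kb upstream stands at 1.58. The HES1 region 3.3 kb downstream in that line, with peaks in 3 vehicle libraries and 1 DOX library, stands at -1.97. In BT-549 cells the HES1 start and 5.5 kb regions stand at 0.62 and 0.90.

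Single bins were also held to the cutoffs of the study, a 2-fold change with an adjusted p under 1e-05 in DU-145 cells and under 0.01 in BT-549 cells. The adjusted p came from edgeR with scaling by library sum, whereas the study used DESeq2. The counts are therefore not comparable with those of the study. In DU-145 cells 6 of 581 NOTCH bins passed upwards, 5 in the SEC16A start region of the NOTCH1 window and 1 in the JAG2 window, and 0 downwards. Among all bins of the line 5.0% passed upwards and 1.59% downwards. The 6 bins became 0 without vehicle replicate 2 or without DOX replicate 2, and DESeq2 also gave 0. In BT-549 cells 25 of 452 bins passed upwards, against 2.07% of all bins. Of these, 11 lay in the NOTCH1 window, 10 of them in the SEC16A start region. A further 9 lay in the HES1 window and 5 in the NUDT14 start region of the JAG2 window. Adjoining bins share fragments, so they are not separate results. There were 8 bins that passed downwards, 6 in the DLL4 and 2 in the NOTCH2 window, against 2.87% of all bins. They lay in regions with peaks in 3 vehicle libraries and at most 1 DOX library, so a fall was favoured by how these bins entered the table. The count of 8 fell to 0 without DOX replicate 3, to 1 without DOX replicate 1, to 2 without vehicle replicate 2, and to 3 without vehicle replicate 1 or DOX replicate 2. With DESeq2, fewer than 25 bins passed upwards and 0 downwards in BT-549 cells. For the 0 downward bins of DU-145 cells, DESeq2 also gave 0 and removal of the GC trend gave 3, while edgeR's unadjusted p was under 0.05 for 87 bins that were lower with DOX and 110 that were higher.

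Whether the change with DOX differed between the lines was tested as an interaction in a fit of all 12 libraries, over bins present in both tables. The change was more positive in BT-549 cells for HES1 (0.84 on the log2 scale, SE 0.093, adjusted p = 3.03e-09), NOTCH1 (0.45, adjusted p = 0.000848), HEY1 (0.40, adjusted p = 0.00384) and JAG2 (0.50, adjusted p = 0.0189). It was more negative in BT-549 cells for JAG1 (-0.46, adjusted p = 0.00816). For NOTCH2 the fitted difference was -2.13. The BT-549 bins of NOTCH2 all lay in regions with peaks in vehicle libraries alone, so this value is given as a description. The differences for NOTCH4 (0.07), DLL1 (-0.18) and DLL4 (-0.19) did not pass the test. Among all 16429 windows in the fit, 18.6% were more positive and 15.6% more negative in BT-549 cells. The JAG2 difference was lost without DU-145 vehicle replicate 1 (0.39, adjusted p = 0.0782), DU-145 DOX replicate 1 (0.43, adjusted p = 0.0552) or BT-549 DOX replicate 3 (0.35, adjusted p = 0.137). For HES1 the bins in common gave 318 ± 10.9 CPM with vehicle and 278 ± 13.7 CPM with DOX in DU-145 cells, and 278 ± 4.23 and 436 ± 12.6 CPM in BT-549 cells (SD, n = 3).

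Of 29 NOTCH regions present in both tables, the change with DOX was more positive in BT-549 cells in 7 and more negative in 4, against 11.3% and 27.3% of all 32671 shared regions. The former included the HES1 regions at the start (0.83, adjusted p = 6.79e-08) and 5.5 kb downstream (0.88, adjusted p = 4.05e-07), and the HEY1 region 16.1 kb upstream (0.63, adjusted p = 0.00528). The latter included the NOTCH2 region 82.4 kb downstream (-2.60) and the DLL4 region 28.6 kb downstream (-2.79). The HES1 region 3.3 kb downstream (1.61) was also among the former. The NOTCH2, DLL4 and HES1 3.3 kb values are given as a description. Their regions entered a table mainly through vehicle peaks, in BT-549 cells for NOTCH2 and DLL4 and in DU-145 cells for HES1. In the vehicle groups alone, the BT-549 window was higher for NOTCH2 (2.03) and DLL1 (0.48, adjusted p = 7.61e-06), against 37.0% of all windows. It was lower for JAG2 (-1.19, adjusted p = 8.09e-13), DLL4 (-0.73, adjusted p = 1.9e-08), HES1 (-0.19, adjusted p = 0.00706) and NOTCH1 (-0.19, adjusted p = 0.0193), against 39.0% of all windows. The BT-549 bins of NOTCH2 lay in regions with peaks in vehicle libraries alone, so the NOTCH2 value is given as a description. Line and library preparation cannot be told apart in these vehicle differences.

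Peaks had been called in each library separately. The NOTCH windows of DU-145 cells held 45.0 ± 5.29 peaks with vehicle and 52.0 ± 7.55 with DOX (SD, n = 3, exact two-sided permutation p = 0.3). Those of BT-549 cells held 51.3 ± 12.5 and 33.0 ± 5.29 peaks (SD, n = 3, exact two-sided permutation p = 0.2). As a share of all peaks of a library, the NOTCH windows held 0.0620 ± 0.00598% with vehicle and 0.0908 ± 0.00438% with DOX in BT-549 cells (SD, n = 3, exact two-sided permutation p = 0.1), with no overlap. The share in DU-145 cells was 0.0626 ± 0.00196% with vehicle and 0.0571 ± 0.00577% with DOX, and these groups overlapped (SD, n = 3, exact two-sided permutation p = 0.3). With 3 libraries against 3, 0.1 is the smallest p that this test can give. All peaks of a BT-549 library numbered 65204 to 93929 with vehicle and 30450 to 39837 with DOX, and the part of depth in these numbers was not tested. The NOTCH2 window of BT-549 cells held 3 to 5 peaks in each vehicle library and 0 in each DOX library.

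Beyond the 10 genes, a list of 46 genes of the pathway (processing enzymes, modifiers, coactivators, corepressors and further targets) was followed in the same window fit. Such windows can also hold the starts of neighbouring genes, and the regions within them were not examined. The changes below are those of windows, and how they depend on the processing is not given. In DU-145 cells 6 rose, 15 fell and 25 did not pass the test, with a median log2 fold change of -0.05, against 20.7% and 31.3% of all windows and a median of -0.06. MIB1, a ubiquitin ligase needed for ligand activity, fell from 197 ± 6.06 to 138 ± 8.47 CPM (SD, n = 3, -0.52, edgeR adjusted p = 1.38e-08). POGLUT1, which glucosylates the receptors, fell by 0.53 (adjusted p = 2.4e-07), and PSENEN, a subunit of gamma-secretase, by 0.33 (adjusted p = 2.44e-05). HES5, MFNG and MAML2, a target, a Fringe glycosyltransferase and a Mastermind-like coactivator, rose by 0.27, 0.39 and 0.24 (adjusted p = 0.000848, 0.000943 and 0.00409).

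In BT-549 cells 14 of the 46 rose, 4 fell and 28 did not pass the test, with a median of 0.10, against 19.0% and 13.8% of all windows and a median of 0.04. MAML2 fell from 456 ± 7.70 to 285 ± 33.7 CPM (SD, n = 3, -0.68, edgeR adjusted p = 3.44e-08). HES4, a further HES family gene, fell by 0.39 on the log2 scale (adjusted p = 0.000302). POFUT1, which fucosylates the receptors, rose from 31.8 ± 2.87 to 52.9 ± 1.70 CPM (SD, n = 3, 0.73, edgeR adjusted p = 0.00019). CTBP1, a corepressor, rose by 0.63 (adjusted p = 7.61e-06) and HES5 by 0.42 (adjusted p = 0.000257). The HES5 window was thus higher with DOX in both lines, and the MAML2 window was higher in DU-145 cells and lower in BT-549 cells. The difference between the lines was not tested for these genes.

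As a description, the start regions of other genes were ranked by their Pearson correlation with the start region of each NOTCH gene. The correlation was taken over the 12 libraries, which share line and depth differences. For NOTCH4 and DLL1 the start region was the one at the start of GPSM3 and FAM120B, respectively. For NOTCH2 it was the region at the alternative start 82.4 kb downstream, which in BT-549 cells had peaks in vehicle libraries alone. HES1 was most like CASP9 and DNAJC16 (r = 0.96) and OGDH (0.957), and NOTCH1 was most like ZNHIT2 (0.913). For NOTCH2 it was CRYGS (0.939), for NOTCH4 ZNF100 (0.944), for JAG1 BTBD7 (0.936), for JAG2 NIN (0.992), for DLL1 FOXD3 (0.963), for DLL4 RALGPS1 (0.995) and for HEY1 ANKRD10 (0.976).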

How the data were processed

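The 12 ATAC-seq libraries (2 cell lines, vehicle and DOX, 3 replicates each) were grouped by their labels, and the 10 genes and the gene lists were chosen with earlier results of these data known. The authors aligned reads to GRCh38 with BWA, removed duplicates with Picard, called peaks per library with MACS2 2.2.7.1 (q under 0.05) and merged those found in at least 3 replicates, which were divided into 100-bp bins. The deposited tables hold the mean fragment coverage per bin, not whole numbers and not normalized for depth, and are treated as estimated counts. The deposited peak lists hold the fold enrichment (a ratio), the -log10 p-value and the -log10 q-value of each peak.

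Coverage was summed over each window (gene body and 20 kb on each side, protein-coding genes of GENCODE v44) and region (run of adjoining bins), and the sums were rounded. Features with a sum of at least 10 were tested with the robust quasi-likelihood test of edgeR 4.0.16 (R 4.3.3), with the column sum as library size, Benjamini-Hochberg adjustment over all features and an adjusted p under 0.05. A fragment adds to several bins, so a window's or region's count overstates the number of fragments. The lines were compared by the interaction of line and DOX. Peak numbers were compared with the exact permutation test of scipy 1.17.1. Named regions were the most accessible one within 1 kb of a start of the member and, per line and direction, at most 2 called regions with the largest fold change among those averaging at least 5 per bin. Pathway genes were named by smallest adjusted p, and 1 of them and 1 marker gene are not reported here. Alternatives were TMM, RLE and loess scaling, removal of a GC trend, other filters, DESeq2 1.42.0, limma 3.58.1 (log2 values with a pseudocount of 1), thinning to the smallest library, other flanks, a replicate block and leaving out each library. The script was tested on simulated data. All value columns mapped to a sample. The deposited q-values and fold enrichments were used only to count peaks. The NOTCH1 element drawn by the study was not examined on its own.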

Additional observations from a re-analysis of the deposited data

Results flagged for a closer look

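Every result given here was noted because the change with DOX differed between BT-549 and DU-145 cells by the interaction test of edgeR, and each value is the BT-549 minus DU-145 difference of the log2 fold change. Among the windows, the difference was -2.13 for NOTCH2, 0.84 for HES1, 0.40 for HEY1, 0.45 for NOTCH1, 0.50 for JAG2 and -0.46 for JAG1. Among the regions present in both tables, it was -1.48 for NOTCH2 at 120.8 kb downstream and -2.60 at 82.4 kb downstream, 1.61 for JAG2 at 2.4 kb upstream and 1.20 at 12.5 kb upstream, and -2.79 for DLL4 at 28.6 kb downstream. It was -0.46 for the JAG1 start region, 0.83 for the HES1 start region, 1.61 for HES1 at 3.3 kb downstream and 0.88 at 5.5 kb downstream. It was 0.63 for HEY1 at 16.1 kb upstream and 0.56 for the SEC16A start region in the NOTCH1 window. Depth and treatment cannot be told apart in BT-549 cells, and the NOTCH2 regions of that line had peaks in vehicle libraries alone. The DLL4 region in BT-549 cells and the HES1 region 3.3 kb downstream in DU-145 cells had peaks in 3 vehicle libraries and 1 DOX library. The difference for NOTCH2 at 120.8 kb downstream was lost with the GC trend removed (-0.87, adjusted p = 0.181) and without DU-145 vehicle replicate 2 (-1.06, adjusted p = 0.0919). That of the JAG1 start region was lost with TMM factors (-0.25, adjusted p = 0.153). Values for the JAG2 region at 2.4 kb upstream rested on few reads, at 2.44 ± 0.694 CPM with vehicle and 3.83 ± 3.54 CPM with DOX in BT-549 cells (SD, n = 3), and the difference fell to 0.62 without BT-549 DOX replicate 3 (adjusted p = 0.547).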

How the results depend on the processing

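The windows of NOTCH4, HES1 and HEY1 in DU-145 cells and of NOTCH1 and HES1 in BT-549 cells kept their calls in 19 of 19 settings. The HES1, NOTCH1, HEY1 and JAG1 differences between the lines did so in 16 of 16. The NOTCH2 window of BT-549 cells and the NOTCH2 difference also kept theirs. For NOTCH2 this says little, because every setting used bins that had entered the BT-549 table through vehicle peaks alone. Leaving out 1 library at a time gave 2 to 4 windows that rose and 3 to 4 that fell in DU-145 cells (3 and 3 with all libraries), and 2 to 3 and 2 in BT-549 cells (3 and 2). It gave 7 to 12 regions that rose and 6 to 8 that fell in DU-145 cells, 4 to 8 and 3 to 4 in BT-549 cells, 0 to 6 bins past the study's cutoffs upwards in DU-145 cells, and 19 to 24 upwards and 0 to 6 downwards in BT-549 cells. For the difference between the lines it gave 3 to 4 windows and 6 to 8 regions that were more positive and 2 windows and 3 to 5 regions that were more negative. The 11 rising and 8 falling DU-145 regions became 5 and 14 with TMM factors, 5 and 16 with RLE factors and 5 and 15 with DESeq2, all of which centre the bulk of the regions nearer to 0. The rising ones became 7 with loess offsets and 7 with the highest bin of each region. The study's cutoffs on regions left 2 rising and 1 falling in DU-145 cells. In BT-549 cells they left 1 rising region and all 3 falling ones, which had peaks in at most 1 DOX library. For bins, TMM factors gave 3 and DESeq2 0 upwards in DU-145 cells, removal of the GC trend gave 3 downwards there, and in BT-549 cells DESeq2 gave 15 upwards and 0 downwards and filterByExpr 5 downwards. Flanks of 5 kb left 1 falling window in BT-549 cells. The direction turned for the NOTCH3 window of DU-145 cells with flanks of 50 kb (-0.12), for the BT-549 windows of JAG2 (-0.07) and DLL4 (0.10) with flanks of 5 kb, and for DU-145 regions with loess offsets (NOTCH3 at 13.3 kb downstream -0.26, NOTCH4 at 46.7 kb downstream 0.05). It also turned for the JAG1 start region of DU-145 cells with TMM factors (-0.01), RLE factors (-0.06) and DESeq2 (-0.06), and for HES1 at 14.0 kb upstream with the GC trend removed (-0.10, or -0.09 with a replicate block). Apart from the settings that centre the regions, the cause of these changes was not tested. Samples that share a replicate number did not deviate together (r from -0.035 to 0.041 in DU-145 cells and from 0.0048 to 0.069 in BT-549 cells), so the numbers were not taken as a pairing. With a replicate block, 4 windows rose and 3 fell in DU-145 cells, 3 and 2 in BT-549 cells, 12 regions rose and 8 fell in DU-145 cells, 5 and 3 in BT-549 cells, 5 bins passed downwards in BT-549 cells, and with the GC trend removed as well 5 DU-145 windows rose. The BT-549 DOX libraries were the shallowest, and with all libraries thinned to the smallest one the JAG2 window of that line no longer passed (0.33, adjusted p = 0.13).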
